A study of Homo sapiens with 12 samples.

Results

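The 10 genes described here are the cadherins CDH1, CDH2 and CDH3, the epithelial splicing regulators ESRP1 and ESRP2, and the transcription factors GRHL2, OVOL1, OVOL2, ZEB1 and ZEB2, which act in the epithelial-to-mesenchymal transition (EMT). They were taken by symbol from a named list of 10 genes, out of 62702 genes with counts, with the effect of deleting the I-tail of the intermediate prolactin receptor in view. All 10 were among the 17677 genes that passed the filter on low counts. The list was chosen by symbol with the measured log2 differences between deleted and intact cells known. Deletion values of the 10 genes are therefore given as a description, with no p-value.

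RNA was measured in MCF10AT cells, a Ras-transformed derivative of the MCF10A human breast epithelial line that grows in hormone- and EGF-supplemented medium. All cells carried a pair of human prolactin receptors, the long form and the intermediate form (hPRLrL/hPRLrI), and the deleted cells lacked the I-tail of the intermediate form. All cultures went without serum for 24 h, and then either received prolactin (PRL, 250 ng/ml for 2 h) or stayed untreated. The 4 groups were deleted with PRL, deleted untreated, intact with PRL and intact untreated, with 3 libraries each (12 in all), which the treatment label calls biological replicates. How the receptors were introduced and whether a group is 1 clone or several was not stated in the labels.

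Epithelial cells are held together by E-cadherin (CDH1) and, in basal breast cells, P-cadherin (CDH3), whereas N-cadherin (CDH2) is the classical cadherin of mesenchymal cells. ZEB1 and ZEB2 are repressors that bind the CDH1 promoter and silence epithelial genes, and the miR-200 family and miR-205 in turn target their transcripts. GRHL2, OVOL1 and OVOL2 are epithelial factors that oppose the ZEB repressors, and ESRP1 and ESRP2 direct the epithelial splice forms of transcripts such as FGFR2, CD44 and CTNND1.

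The sequences that tie the ZEB genes to the miRNAs are shown first, because both miRNA host genes were measured beside the members. In these RefSeq sequences (GRCh38.p14) capitals mark the seed, bases 2 to 8, by which a miRNA pairs with its target. The first 3 miRNAs share 1 seed and the next 2 share another.
hsa-miR-200b-3p: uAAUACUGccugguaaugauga
hsa-miR-200c-3p: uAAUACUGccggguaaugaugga
hsa-miR-429: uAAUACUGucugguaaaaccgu
hsa-miR-200a-3p: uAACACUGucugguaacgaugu
hsa-miR-141-3p: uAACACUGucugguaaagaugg
hsa-miR-205-5p: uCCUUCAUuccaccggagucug

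The seed matches CAGTATT (for miR-200b, miR-200c and miR-429), CAGTGTT (for miR-200a and miR-141) and ATGAAGG (for miR-205) were searched on the transcript strand of the 3′ UTR of 1 transcript per member (GENCODE 29, GRCh38), and no match overlapped another. The ZEB1 3′ UTR held 6 copies of CAGTATT, 3 of CAGTGTT and 1 of ATGAAGG, and the ZEB2 3′ UTR held 5 copies of CAGTATT, 4 of CAGTGTT and 0 of ATGAAGG. Among 3′ UTRs within 20% of the same length, 0% of 1934 held as many CAGTATT copies as ZEB1 and 0% of 843 as many as ZEB2. For CAGTGTT the shares were 0.517% and 1.54%, and 19.6% held at least 1 ATGAAGG. The transcripts of CDH1, CDH2, ESRP2, OVOL1 and OVOL2 had 0 of these matches, and CDH3, ESRP1 and GRHL2 had 1 or 2. One ZEB1 site of each kind and 1 ZEB2 site of each miR-200 seed are printed with the match in capitals. The ZEB1 sites lie on the plus strand at chr10:31527619-31527640, chr10:31528032-31528053 and chr10:31528068-31528089, and the ZEB2 sites on the minus strand at chr2:144389052-144389073 and chr2:144389236-144389257.
ZEB1 CAGTATT: ttgttttatcttatCAGTATTa
ZEB1 CAGTGTT: aaaatcatcagaatCAGTGTTt
ZEB1 ATGAAGG: atatgtggtaacatATGAAGGa
ZEB2 CAGTATT: gcactaccatacatCAGTATTt
ZEB2 CAGTGTT: gcaaaaattttgtaCAGTGTTa

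Libraries held 36120808 to 57324865 counts. Values below are CPM, counts relative to the library total after TMM scaling, and libraries are numbered 1 to 3 within a group in the order of their titles. Title numbers run from 1 to 12 in 3 runs of 4, each with 1 library of every group, and library 1, 2 or 3 of a group belongs to run 1, 2 or 3, called the first, the second and the third run. The labels do not call a run a batch. The 4 first-run libraries had TMM factors of 1.10 to 1.16, against 0.79 to 1.01 in the second run and 0.91 to 1.05 in the third run. They detected 24477 to 25200 genes, against 19073 to 23119 and 21761 to 23895. The intact PRL library 2 and the intact untreated library 2 stood apart, with the fewest genes detected (19073 and 19905). PRLR, the receptor gene, had 3100 to 3960 CPM in all 12 libraries, and a gene count does not show the I-tail. Leukocyte markers were near 0 (all 6 listed markers under 1 CPM in each group, summed level at most 1.13 CPM), while the basal markers KRT5 and KRT17 reached 3330 and 4670 CPM. Luminal markers were mixed. KRT8 had 864 to 2320 CPM and KRT18 had 214 to 721 CPM, whereas ESR1 reached at most 0.359 CPM and PGR was at 0 in every library. The labelled epithelial cells also had high levels of the mesenchymal genes VIM (466 to 608 CPM) and FN1 (4980 to 12700 CPM) and low EPCAM, an epithelial surface marker (1.16 to 5.33 CPM). Other listed genes of both kinds went the other way. The mesenchymal genes COL1A2, POSTN and THY1 reached at most 0.676, 1.12 and 0.807 CPM. The epithelial genes DSP, PKP3 and MUC1 had 163 to 320, 120 to 301 and 89.1 to 297 CPM.

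CDH3 was the most abundant of the 10 genes per length. Its median over the 12 libraries was 17.6 CPM per kb of exon, against 7.69 for CDH2 and 4.71 for CDH1. ESRP2 (4.19) was close to CDH1 and ESRP1 (1.40) stood below both. The transcription factors were the least abundant, with 0.513 for GRHL2, 0.447 for OVOL2, 0.347 for ZEB1, 0.249 for ZEB2 and 0.0608 for OVOL1. The ranges of CDH1 and CDH2 (1.60 to 11.1 and 5.97 to 9.48 CPM per kb) overlapped, as did those of all neighbours from GRHL2 down to ZEB2. With the longest transcript as the length, ESRP2 (6.14) passed CDH1 (5.95) and ZEB2 (0.652) passed OVOL2, GRHL2 and ZEB1.

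CDH1, the E-cadherin gene (ENSG00000039068, GRCh38 chromosome 16, 68737225 to 68835548), had higher levels in deleted than in intact cells within each run, on top of a wide spread between the runs. It had 14.4, 46.5 and 57.6 CPM in deleted PRL libraries and 15.0, 55.0 and 68.7 CPM in deleted untreated libraries. It had 9.89, 18.9 and 39.3 CPM in intact PRL libraries and 11.6, 21.3 and 36.8 CPM in intact untreated libraries. The lowest value of each group came from the first run, so the deleted and intact groups overlapped under both treatments. The log2 fold change of deleted over intact cells, averaged over treatments, was 0.89 ± 0.45 (SE), a 1.86-fold level.

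CDH3, which encodes P-cadherin of basal epithelium (ENSG00000062038, chromosome 16, 68636189 to 68722616), showed the same arrangement at higher levels. It had 53.4, 129 and 219 CPM in deleted PRL libraries and 57.1, 130 and 205 CPM in deleted untreated libraries. It had 47.0, 90.2 and 142 CPM in intact PRL libraries and 44.7, 80.1 and 142 CPM in intact untreated libraries. Groups again overlapped, and the averaged difference was 0.54 ± 0.40 on the log2 scale.

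CDH2, the N-cadherin gene (ENSG00000170558, chromosome 18, 27950966 to 28177446), varied least of the 10, with 1.59-fold between its lowest and highest library. It had 45.9, 35.0 and 29.6 CPM in deleted PRL libraries, 43.2, 38.3 and 37.8 CPM in deleted untreated libraries, 46.9, 42.0 and 32.1 CPM in intact PRL libraries and 46.7, 37.6 and 34.3 CPM in intact untreated libraries. The 4 first-run libraries were the highest in every group, and the averaged deletion difference was -0.06 ± 0.14.

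**Figure D1:**
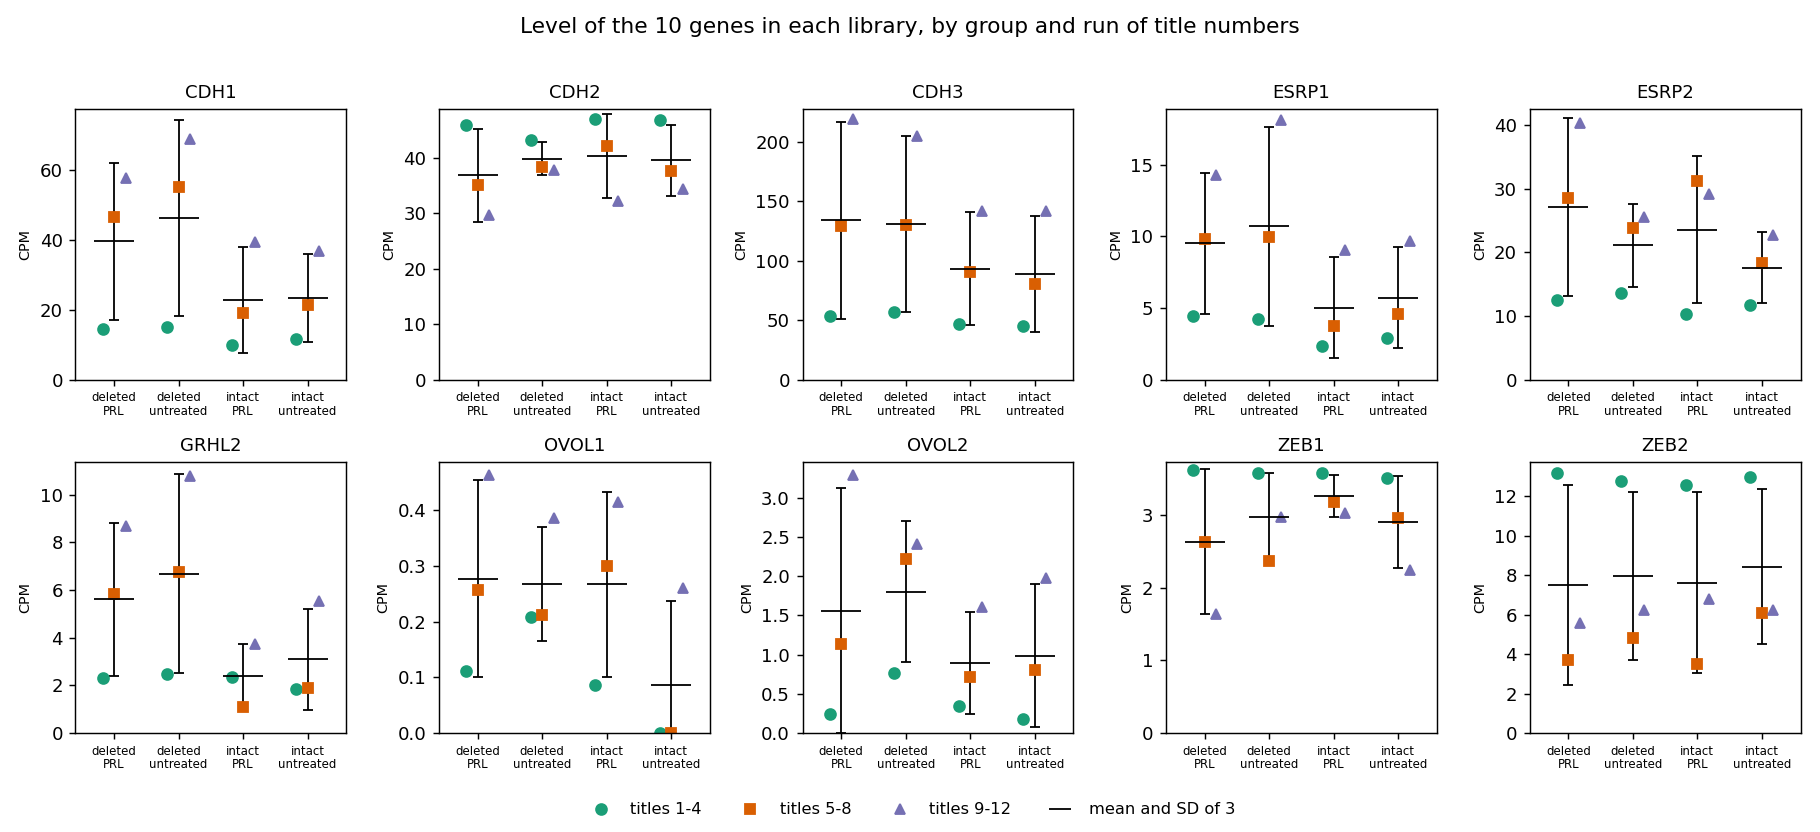
Each panel plots 1 gene in CPM on a linear axis from 0, with the 4 groups side by side, 1 point per library, the marker giving the run of title numbers and the bar the mean and SD of 3 libraries. First-run points are the lowest of every group for CDH1 (9.89 to 15.0 CPM) and CDH3, and the highest for CDH2, ZEB1 and ZEB2 (12.6 to 13.2 CPM).

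The balance of the E- and N-cadherin transcripts followed from these values. The ratio of CDH1 to CDH2 counts per kb was 0.251, 1.06 and 1.56 in deleted PRL libraries and 0.278, 1.15 and 1.46 in deleted untreated libraries. It was 0.169, 0.361 and 0.982 in intact PRL libraries and 0.199, 0.454 and 0.861 in intact untreated libraries. The 4 deleted libraries of the second and the third run were above 1, and all 6 intact libraries were below 1. The split at 1 depends on the length used, since with the longest transcript of each gene intact PRL library 3 was at 1.09, against 0.982 here. Within a run and treatment the ratio of deleted cells was 1.39 to 2.95 times that of intact cells, in 6 of 6 pairs. The second-run pairs, whose intact libraries had the fewest genes detected, were the highest (2.53 untreated and 2.95 with PRL). Pairs of the other runs lay between 1.39 and 1.69. The CDH1 to CDH2 ratio within a library does not depend on the scaling between libraries. Like the CDH1 difference, it is a description, since the genes were chosen with the deletion differences known.

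**Figure D2:**
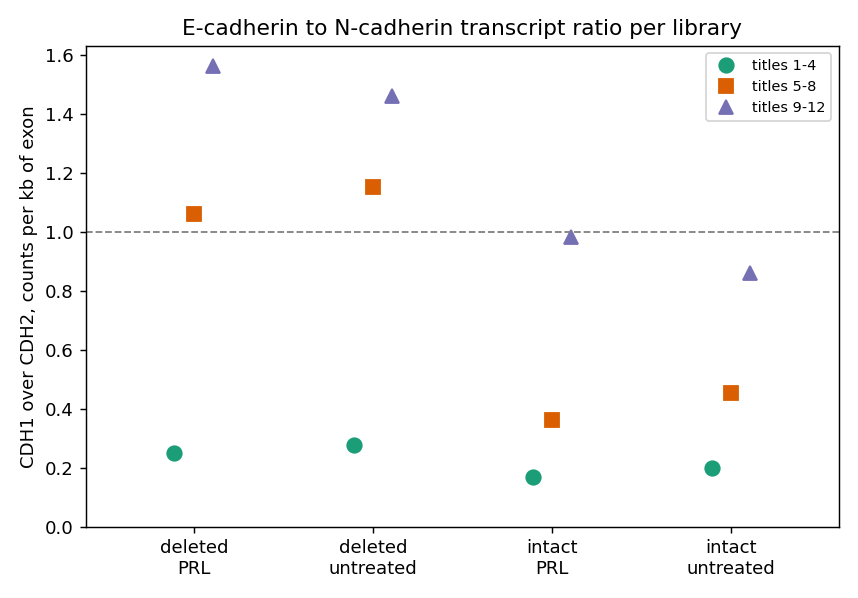
The ratio of CDH1 to CDH2 counts per kb of exon is plotted on a linear axis from 0 for each of the 12 libraries, by group, with the marker giving the run and the dashed line equal levels. Points above the line are the deleted libraries of the second and the third run (1.06 to 1.56, with exon lengths as used here), and first-run libraries are at 0.169 to 0.278.

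ESRP1, an RNA-binding protein that sets epithelial splice choices (ENSG00000104413, chromosome 8, 94641074 to 94707466), followed CDH1. It had 4.47, 9.83 and 14.3 CPM in deleted PRL libraries and 4.22, 9.93 and 18.1 CPM in deleted untreated libraries. It had 2.33, 3.71 and 9.04 CPM in intact PRL libraries and 2.92, 4.58 and 9.70 CPM in intact untreated libraries. The deleted library was the higher in each of the 6 pairs of 1 run and treatment, although the groups overlapped across runs, and the averaged difference was 0.91 ± 0.43 (1.88-fold). Its paralogue ESRP2 (ENSG00000103067, chromosome 16, 68229111 to 68238102) had 12.5, 28.5 and 40.4 CPM in deleted PRL libraries, 13.6, 23.9 and 25.6 CPM in deleted untreated libraries, 10.3, 31.2 and 29.2 CPM in intact PRL libraries and 11.7, 18.3 and 22.7 CPM in intact untreated libraries. It shared the low first-run values and differed little by receptor, with an averaged 0.23 ± 0.32. Whether the deletion differences of ESRP1 and ESRP2 differ from each other was not tested.

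GRHL2, a grainyhead-like activator of CDH1 and other epithelial genes (ENSG00000083307, chromosome 8, 101492432 to 101669726), had the largest averaged deletion difference of the 10 over all 12 libraries, 1.16 ± 0.44 (2.23-fold). It had 2.31, 5.83 and 8.69 CPM in deleted PRL libraries and 2.47, 6.76 and 10.8 CPM in deleted untreated libraries. It had 2.35, 1.11 and 3.75 CPM in intact PRL libraries and 1.85, 1.90 and 5.55 CPM in intact untreated libraries. The first-run libraries of the PRL groups differed by -0.03 on the log2 scale and those of the second run by 2.35. The intact PRL library 2, whose 1.11 CPM rest on 37 counts, also had the fewest genes detected. Without that library the averaged difference was 0.97, and with each library left out in turn it lay between 0.89 and 1.49.

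OVOL2, a zinc-finger repressor of mesenchymal genes (ENSG00000125850, chromosome 20, 17956979 to 18059188), had 0.245, 1.14 and 3.29 CPM in deleted PRL libraries, 0.762, 2.22 and 2.41 CPM in deleted untreated libraries, 0.345, 0.717 and 1.61 CPM in intact PRL libraries and 0.185, 0.800 and 1.98 CPM in intact untreated libraries. Its spread of 17.7-fold over the libraries was mostly between runs, and the groups overlapped, with an averaged deletion difference of 0.82 ± 0.62. Leaving out 1 library moved that value between 0.21 and 1.30.

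OVOL1, its paralogue (ENSG00000172818, chromosome 11, 65787022 to 65797219), was near the detection limit. It had 5, 9 and 19 counts in deleted PRL libraries, 9, 10 and 17 in deleted untreated libraries, 4, 10 and 17 in intact PRL libraries and 0, 0 and 15 in intact untreated libraries. In the 2 libraries with 0 counts, 3 counts would correspond to 0.0696 and 0.0827 CPM, a limit that covers counting error only. The groups overlapped, and OVOL1 also shares 1044 exon bases with an antisense gene on the opposite strand, so no fold is given for single pairs with a 0. The averaged deletion difference was 0.77 ± 0.77. It was 3.25 without intact untreated library 3 and no lower than 0.46 without any other library.

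The ZEB repressors differed little by receptor. ZEB1 (ENSG00000148516, chromosome 10, 31318495 to 31529814) had 3.62, 2.63 and 1.63 CPM in deleted PRL libraries, 3.58, 2.37 and 2.97 CPM in deleted untreated libraries, 3.58, 3.17 and 3.02 CPM in intact PRL libraries and 3.50, 2.95 and 2.24 CPM in intact untreated libraries. ZEB2 (ENSG00000169554, chromosome 2, 144364364 to 144524583) had 13.2, 3.69 and 5.60 CPM in deleted PRL libraries, 12.8, 4.84 and 6.24 CPM in deleted untreated libraries, 12.6, 3.50 and 6.78 CPM in intact PRL libraries and 13.0, 6.09 and 6.25 CPM in intact untreated libraries. The first-run libraries were the highest for both repressors, and for ZEB2 they formed a narrow band of 12.6 to 13.2 CPM while the other 8 libraries lay between 3.50 and 6.78. The averaged deletion difference was -0.14 ± 0.22 for ZEB1 and -0.05 ± 0.38 for ZEB2. ZEB1 and ZEB2 share 366 and 1299 exon bases with the antisense genes ZEB1-AS1 and ZEB2-AS1. Whether counting used the strand is not stated, and without it the reads of such pairs cannot be told apart. CDH1, CDH2, CDH3, ESRP2 and GRHL2 share between 50 and 694 exon bases with a gene on the opposite strand. On the same strand, OVOL2 shares 59 exon bases with the protein-coding gene SNX5. ESRP2 shares 74 with MIR6773 and 35 with AC020978.5 on its own strand.

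In a fit of all 17677 genes with 1 mean per group (edgeR quasi-likelihood test, Benjamini-Hochberg adjustment over all genes, called at 0.05), 0 of the 10 genes were called for the averaged deletion effect, beside 0.00566% of all genes (1 gene). At an unadjusted p under 0.05 there was 1 of the 10, beside 403 of all 17677 genes, and DESeq2 and limma-voom called 0 of the 10. The same counts of calls, 0 of 10 and 0.00566% of all genes, were found in PRL-treated and in untreated cells. The log2 difference was above 0 in 7 of the 10 genes and their median was 0.65, against 0.03 over all tested genes. Because the genes were chosen on this contrast, these counts and the median describe them and support nothing. Deleted and intact groups did not overlap for 0 of the 10 genes in either treatment, where 4.95% of all genes did not overlap with PRL and 5.49% untreated. In bulk RNA, fewer cells of a kind and less RNA per cell cannot be told apart.

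Within the runs the deleted libraries were the higher in 6 of 6 pairs for CDH1 (log2 differences of 0.37 to 1.37), CDH3 (0.18 to 0.70) and ESRP1 (0.52 to 1.40), as for 4.04% of all tested genes (2.99% were lower in all 6). They were higher in 5 of 6 pairs for ESRP2, GRHL2, OVOL1 and OVOL2. For CDH2, ZEB1 and ZEB2 they were higher in 2, 3 and 2 pairs. The 3 largest differences of CDH1 and ESRP1 included both second-run pairs, whose intact libraries had the fewest genes detected. Without the 4 second-run libraries, in the fit with the run term described next, the averaged differences of CDH1 and ESRP1 were 0.59 and 0.76.

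**Figure D3:**
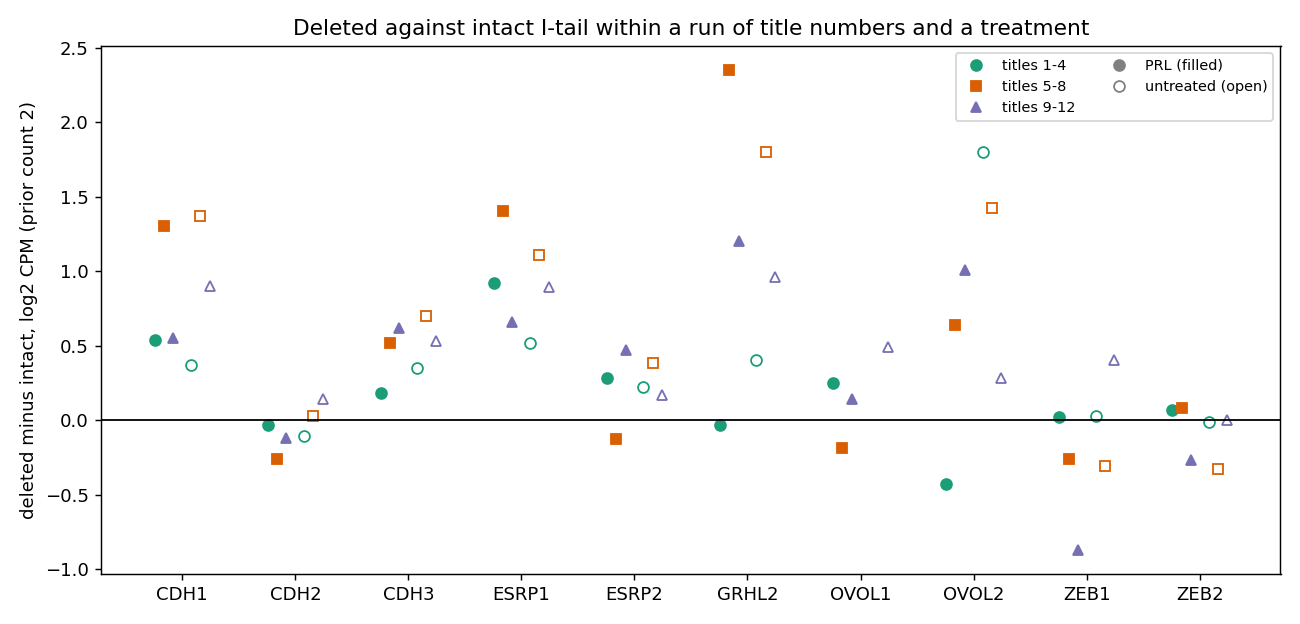
For each gene the log2 CPM difference, deleted minus intact, is plotted for the 6 pairs of 1 run and treatment, filled for PRL and open for untreated, with the marker giving the run. All 6 points of CDH1, CDH3 and ESRP1 are above 0, those of CDH2, ZEB1 and ZEB2 lie on both sides, and the 2 OVOL1 pairs with an intact library at 0 counts are not drawn.

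A term for the run of title numbers left the fold changes other than that of OVOL1 nearly as they were and narrowed their errors. The biological coefficient of variation over all genes was 0.303 without the term and 0.179 with it. With the term CDH1 stood at 0.84 ± 0.12, ESRP1 at 0.93 ± 0.12 and CDH3 at 0.49 ± 0.08, and these 3 of the 10 were called higher in deleted cells, beside 0.0509% of all genes (9 genes, or 0.0622% with both directions counted). Nothing is read from this count, since the genes were chosen with these differences known. GRHL2 (1.10 ± 0.25), OVOL2 (0.87 ± 0.27), OVOL1 (1.08 ± 0.67), ESRP2 (0.23 ± 0.12), CDH2 (-0.06 ± 0.08), ZEB1 (-0.15 ± 0.17) and ZEB2 (-0.09 ± 0.13) were not called. With each of the 12 libraries left out in turn, the log2 fold change stayed between 0.84 and 0.98 for ESRP1, 0.72 and 0.92 for CDH1 and 0.42 and 0.54 for CDH3, while the calls changed. The ESRP1 call held in 10 and ended without the untreated library of the third run, of deleted (0.91) or of intact cells (0.89). The CDH1 call held in 7, ending without any of the 4 libraries of the third run or without intact untreated library 2. The CDH3 call held in 1, without intact PRL library 1, where GRHL2 was called as well. The value of OVOL1 was 3.05 without intact untreated library 3, its 1 intact untreated library with counts, and 0.79 to 1.43 without any other library. In PRL-treated and in untreated cells taken alone, 0 of the 10 were called with the term, beside 1 of all 17677 genes in each.

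**Figure D4:**
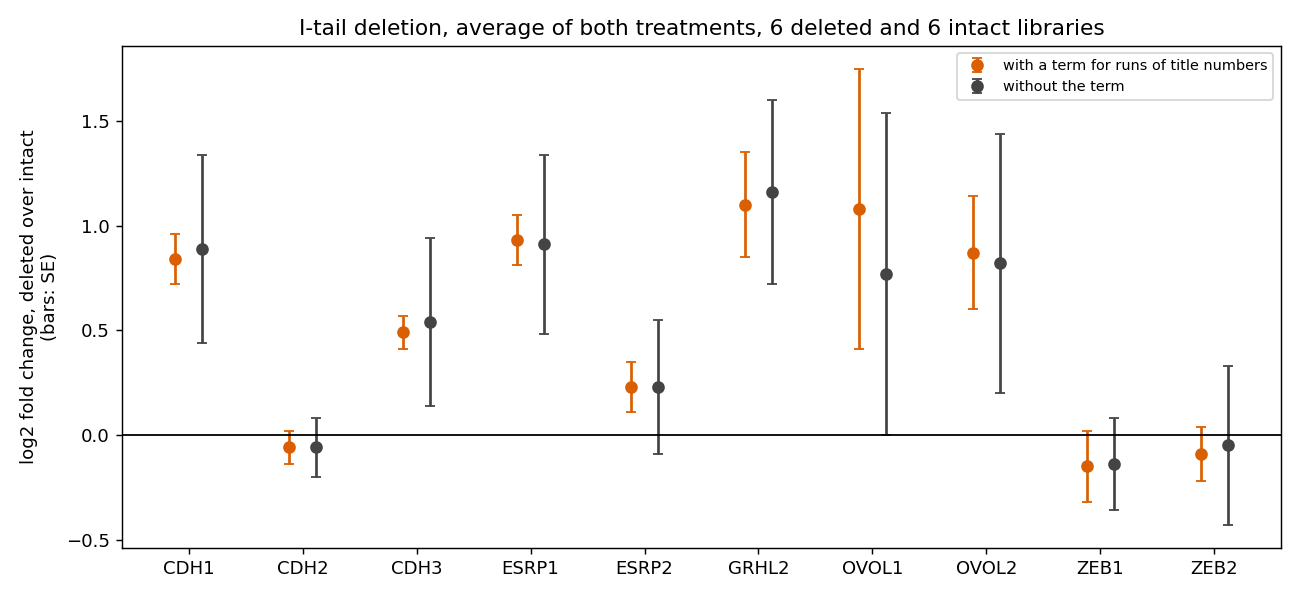
The log2 fold change of deleted over intact cells, averaged over both treatments, is plotted for each gene with its SE, in a fit with a term for the runs of title numbers and in a fit without it. Apart from OVOL1 (1.08 with the term and 0.77 without it) the values hardly move, while the SE of CDH1 is 0.12 with the term and 0.45 without it.

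The spread between runs was itself tested, after the data had been seen, as an F test of the run term over all genes. It passed an adjusted p of 0.05 for 8 of the 10 genes, beside 42.1% of all genes. CDH3 (edgeR, adjusted p = 1.76e-07), CDH1 (adjusted p = 3.59e-06), ESRP1 (adjusted p = 4.39e-06) and ZEB2 (adjusted p = 2.45e-05) had the smallest values, and ZEB1 (adjusted p = 0.0828) and OVOL1 (adjusted p = 0.0957) did not pass. The third run exceeded the first by 1.96 (log2) for CDH1, 1.78 for CDH3, 1.87 for ESRP1 and 1.53 for GRHL2, while ZEB2 was lower by a log2 value of -1.06 and CDH2 by -0.45. All 4 first-run libraries were below the other 8 for CDH1, CDH3 and ESRP2 (13.6% of all genes) and above them for CDH2, ZEB1 and ZEB2 (12.8% of all genes). The summed level of 8 basal markers moved with the runs, at 3160 to 3910 CPM in the first, 8850 to 10000 in the second and 10700 to 15700 in the third. Their part in the run differences, and that of the TMM factors, was not tested. The 8 fibroblast markers summed to 424 to 526, 478 to 618 and 426 to 479 CPM.

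None of the 10 genes passed the threshold for the PRL effect. In the fit without a run term, 0 of 10 were called for the PRL effect averaged over both receptor pairs, beside 0.119% of all genes (21 genes), and 0 of 10 had an unadjusted p under 0.05. DESeq2 and limma-voom also called 0 of the 10. CDH1 stood at -0.13 ± 0.44 (edgeR, adjusted p = 0.985, 95% interval -1.09 to 0.82), with the PRL library higher in 1 of 6 pairs. ESRP1 stood at -0.18 ± 0.43 (adjusted p = 0.982), GRHL2 at -0.31 ± 0.44 (adjusted p = 0.98) and CDH3 at 0.05 ± 0.40 (adjusted p = 0.992). ESRP2 had the largest positive value among the genes with at least 1 CPM, 0.39 ± 0.32 (adjusted p = 0.98), and was higher with PRL in 4 of 6 pairs. ZEB1 (0.00 ± 0.22) and ZEB2 (-0.11 ± 0.38) had adjusted p of 0.999 and 0.985.

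With the run term the PRL intervals narrowed and 0 of 10 were called, beside 1.12% of all genes (198 genes). The interval of CDH1 was then -0.41 to 0.11, of ESRP1 -0.42 to 0.09, of CDH3 -0.13 to 0.22 and of ZEB2 -0.46 to 0.08 on the log2 scale. ESRP2 was the 1 gene of the 10 with an unadjusted p under 0.05, at 0.30 ± 0.12 (edgeR, adjusted p = 0.296), where 2411 of all 17677 genes had one. The question whether PRL acts differently with the deleted and the intact I-tail was tested as an interaction, and 0 genes in all were called with edgeR, DESeq2 or limma-voom (127 genes at an unadjusted p under 0.05, none of the 10). Interaction values of the 10 genes lay between -1.41 ± 1.53 for OVOL1 and 0.12 ± 0.87 for GRHL2. The OVOL1 value was -6.44 without intact untreated library 3, which leaves that group at 0 counts and the fitted value dependent on the prior count, and -2.05 to -0.87 without any other library.

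Among the listed partners, the host transcripts of the miRNAs shown above had lower medians in the first run than in the other 2 runs. The medians were 0.408 and 1.27 CPM for MIR200CHG and 15.6 and 77 CPM for MIR205HG. Unlike CDH1, they did not rise from run to run in every group. MIR200CHG, which holds miR-200c and miR-141, had 0.378, 2.49 and 1.66 CPM in deleted PRL libraries, 0.439, 2.34 and 1.38 CPM in deleted untreated libraries, 0.626, 0.388 and 1.15 CPM in intact PRL libraries and 0.348, 0.855 and 0.642 CPM in intact untreated libraries. MIR205HG, which holds miR-205, had 17.2, 113 and 89.0 CPM in deleted PRL libraries, 18.5, 123 and 127 CPM in deleted untreated libraries, 13.2, 22.6 and 63.6 CPM in intact PRL libraries and 13.9, 50.4 and 64.9 CPM in intact untreated libraries. Deleted libraries were higher in 5 and 6 of 6 pairs for MIR200CHG and MIR205HG, where 4.04% of all tested genes were higher in all 6. The averaged differences of 1.11 ± 0.49 and 1.10 ± 0.56 did not pass (edgeR, adjusted p = 0.991 each, and with the run term 0.333 and 0.216). Mature miRNAs were not measured in these polyA libraries. ZEB1-AS1, the antisense partner of ZEB1, had 1.56, 1.89 and 1.29 CPM in deleted PRL libraries, 1.15, 1.01 and 0.999 CPM in deleted untreated libraries, 1.30, 1.31 and 1.07 CPM in intact PRL libraries and 2.20, 1.63 and 1.56 CPM in intact untreated libraries. Deleted libraries were above intact ones in the 3 PRL pairs and below them in the 3 untreated pairs. Its averaged difference was -0.20 ± 0.20 (edgeR, adjusted p = 0.991), and its interaction of 1.13 ± 0.40 had an unadjusted p of 0.0148 and did not pass (edgeR, adjusted p = 1).

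Of the other pathway genes, 0 were called for the averaged deletion effect in any list (edgeR without the run term). Counts of genes above 0 were 4 of 8 tested among other cadherins (median log2 difference -0.03), 9 of 11 among catenins, nectins and actin linkers (0.10), 7 of 11 among other EMT factors (0.05) and 7 of 10 among other epithelial factors (0.13). They were 15 of 23 among epithelial effectors (0.26), 14 of 20 among mesenchymal effectors (0.13), 7 of 8 among splicing factors (0.12) and 4 of 7 among transcripts with ESRP-controlled exons (0.01), beside 55.9% and 0.03 over all genes. The epithelial factor TP63 stood at 0.74 ± 0.43, and SNAI2, a repressor related to Snail, stood at 0.21 ± 0.20. Junction genes went both ways. The tight-junction gene MARVELD3 (1.03 ± 0.53) and the desmosome gene DSP (0.42 ± 0.18) were higher in deleted cells in 6 of 6 pairs, as were 4.04% of all tested genes. CLDN4, a claudin, was higher in 1 pair (-0.40 ± 0.15). Among mesenchymal effectors the integrin gene ITGA5 stood at -0.38 ± 0.16, THY1 at -0.70 ± 0.46, SPARC at 0.37 ± 0.24 and the collagen gene COL5A1 at 0.52 ± 0.35.

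Among other members of these lists, the cadherin CDH13 stood at 0.25 ± 0.14 and CDH24 at -0.28 ± 0.18. CTNND1, the p120 catenin that binds cadherin tails and carries an ESRP-controlled exon, stood at 0.23 ± 0.15, and NECTIN2 at -0.31 ± 0.19. FGFR2, whose epithelial isoform depends on the ESRPs, stood at 0.38 ± 0.29. The splicing factors RBFOX2 and SRSF1 stood at 0.16 ± 0.15 and 0.22 ± 0.18. All had an adjusted p of 0.991 (edgeR). Gene counts do not show splice forms, so ESRP targets were not measured as isoforms.

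For the averaged PRL effect, 1 gene of the lists was called, FOXC2, a forkhead factor that can drive EMT, at 1.08 ± 0.15 (edgeR, adjusted p = 0.0108). FOXC2 had 48.8, 32.1 and 55.6 CPM in deleted PRL libraries, against 22.8, 20.5 and 22.3 CPM in deleted untreated libraries, and 50.7, 58.7 and 47.8 CPM in intact PRL libraries, against 25.4, 19.0 and 29.2 CPM in intact untreated libraries. It was above its untreated partner in every pair, and it shares 145 exon bases with FOXC2-AS1 on the opposite strand. The call ended with library size alone as the scaling or without deleted untreated library 2. With the run term TWIST1, another EMT factor, fell by 0.49 on the log2 scale (edgeR, adjusted p = 0.00932). It was named after its values were seen.

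The gene most like each member over the 12 libraries was sought among 12497 genes with at least 1 CPM, by Pearson's r of log2 CPM. The libraries share 3 runs, so these values are a description of 12 points that fall into clusters. ESRP1 was most like CDH1 itself (r = 0.974), CDH1 most like the atypical cadherin gene FAT2 (0.99) and CDH3 most like the Notch ligand gene JAG2 (0.988). OVOL2 was most like TMPRSS13 (0.955) and ESRP2 most like KLC3 (0.971). CDH2 was most like ARCN1 (0.934), ZEB1 most like TMEM131 (0.943) and ZEB2 most like ERO1A (0.975). OVOL1, below 1 CPM on average, was left out, and the gene nearest to GRHL2 is not given.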

How the data were processed

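Whole-number counts per Ensembl gene were deposited by the authors for 12 polyA libraries. Per the submitters' processing notes, reads were handled with FastQC, STAR 2.7.9a and Subread's featureCounts on GRCh38. The release of the annotation, the use of strand and any filter are not given in the sources used. Groups came from the genotype and treatment labels. Of 62703 entries, 1 without values was left out, and 62624 matched a symbol. Totals of 36120808 to 57324865 counts set the precision, and floors cover counting error only.

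In edgeR 4.0.16 (R 4.3.3), filterByExpr retained 17677 genes, TMM set the scaling, and a robust quasi-likelihood model with 1 mean for each group was fitted, leaving 8 residual degrees of freedom. P-values were adjusted by Benjamini-Hochberg over all tested genes and measure only the spread between these libraries. An SE is the log2 fold change over the square root of its F. Log2 CPM used a prior count of 2. The method was checked on simulated data. Exon lengths, overlaps and 3′ UTRs came from GENCODE 29.

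The 10 genes, the pathway lists and the tests were chosen with earlier results of these data known. Named were the 10 genes, the 4 genes per list with the smallest unadjusted p for the averaged deletion effect, of which most are printed and some are not reported here, any list gene called, and the nearest gene of each member with at least 1 CPM. Alternatives were scaling by RLE, upper quartile or library size, testing without a filter, a filter of 1 CPM and 10 counts in at least 3 libraries, limma-voom (limma 3.58.1), DESeq2 1.42.0, fits of the compared groups only, a term for runs of title numbers and leaving out each library. The run term with libraries left out and its F test were added after the data were seen.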

Additional observations from a re-analysis of the deposited data

How the results depend on the processing

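Of the counts of called members, those for the deletion effect in PRL-treated cells, in untreated cells, the PRL effect and the interaction were 0 under every alternative run. For the averaged deletion effect the count of 0 became 3 without a count filter (CDH1, ESRP1 and GRHL2, beside 33 genes in all; the cause was not tested) and 3 with the run term (beside 11 in all). It was 0 to 4 with the run term and each library left out, and 2 without the second run, both added after seeing the data. Calls over all genes in those added fits are not given here, so nothing is read from these counts. Leaving out single libraries without the term kept the count of called members at 0. Among list genes, the count of 0 for the deletion became 1 without a count filter, 0 to 1 with the run term and 1 library left out, and 2 without the second run. The count of 1 for PRL became 0 with library size alone, 3 without a count filter, 2 with DESeq2, 3 with the run term, 6 with the run term without the second run, and 0 to 1 with a library left out. Over all genes, calls for the averaged deletion effect were 10 with DESeq2 and 2 with limma-voom. Library size alone moved the median of all genes by 0.08 for the deletion and -0.10 for PRL. CDH1, CDH3, ESRP1, GRHL2, OVOL1 and OVOL2 were above 0 for the averaged deletion effect in every alternative run, and ZEB1 below, whereas CDH2, ESRP2 and ZEB2 had either sign or 0.00. PRL effects that changed sign ranged, with 1 library left out, from -0.44 to 0.12 for CDH1, -0.13 to 0.04 for CDH2, -0.22 to 0.30 for CDH3, -0.54 to 0.12 for ESRP1, -0.54 to 0.05 for GRHL2, -0.77 to 0.33 for OVOL2, -0.15 to 0.13 for ZEB1 and -0.46 to 0.15 for ZEB2. CDH3 was -0.08 with library size alone, ZEB1 was 0.01 with RLE scaling or DESeq2 and 0.00 without a filter, and ZEB2 was 0.01 with the run term without the second run. Interactions ranged from -0.66 to 0.46 for CDH1, -0.60 to 0.45 for CDH3, -0.57 to 0.75 for ESRP1, -0.47 to 0.29 for ESRP2 (0.00 with library size alone), -0.59 to 0.65 for GRHL2, -1.24 to 0.71 for OVOL2 and -0.63 to 0.63 for ZEB2. The labels give no replicate numbers, so the run term, taken from title order, was the 1 blocked fit made. Depth limits OVOL1, with 0 to 19 counts per library.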

Other observations

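Basal keratins and other epithelial genes outside the 10 varied by run in the same libraries. KRT5, a keratin of basal cells, had a median of 364 CPM in the first run and 2200 CPM in the other 2 runs, and KRT17 had 464 and 2660 CPM. Within runs and treatments KRT5, KRT14, KRT17 and the epithelial surface marker EPCAM were higher in deleted than in intact libraries in 6 of 6 pairs. The same held for 4.04% of all tested genes, and these genes were named with their values known. Averaged differences of KRT5, KRT14, KRT17 and EPCAM were 0.54 ± 0.61, 0.53 ± 0.46, 0.33 ± 0.63 and 0.57 ± 0.30 (edgeR, adjusted p = 0.991 each). Other listed markers went the other way, with KRT8 (-0.25 ± 0.22), KRT19 (-0.41 ± 0.29) and MUC1 (-0.39 ± 0.32) higher in deleted libraries in 1 of 6 pairs each, and KRT18 (-0.32 ± 0.27) and ITGB4 (-0.10 ± 0.35) in 3 (edgeR, adjusted p = 0.991 each). With the run term KRT14 passed for the deletion, at 0.50 ± 0.08 (edgeR, adjusted p = 0.0271), and for PRL, at 0.38 ± 0.08 (adjusted p = 0.0239). The mesenchymal gene VIM was higher in deleted libraries in 1 of 6 pairs (-0.08 ± 0.12, adjusted p = 0.991). CD44, a surface receptor with ESRP-controlled exons, stayed between 412 and 523 CPM in all libraries, although its isoforms were not measured.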
